A study of Mus musculus with 38 samples.

Results

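Ifi27l2a, Bst2, Plac8, Ifitm1, Ifitm2, Ifitm3, Ly6e and Ms4a4d are 8 of the 13260 genes in a table of expression values from the bone-lining niche of mice with myeloma. They were chosen by name, as genes of the interferon response whose products lie in or at membranes and whose RPKM (reads scaled by gene length and by library size) rose in niche cells of myeloma-bearing mice, together with close Ifitm relatives. The values that chose them are the differences between myeloma-bearing and healthy mice, so those differences are described here without a test. Comparisons between cell types, and between myeloma cells of different sites, were not the contrast that chose the genes and were tested.

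RNA-Seq was performed on 38 libraries of 100 sorted cells each. C57Bl/KaLwRij mice of 8 to 10 weeks received an intravenous injection of PBS (healthy) or of 1000000 5TGM1-GFP cells (myeloma-bearing), and cells were taken on day 23 with no drug given to either group. CD45+ and Ter119+ cells of the bone lining were gated out, and the remainder gave endothelial cells as CD31+ and, among CD31- cells, osteoprogenitors as ALCAM+ without Sca1 and stromal progenitors as Sca1+ without ALCAM. GFP+ myeloma cells came from the same bone lining and from central marrow. Groups held 5 libraries, or 4 for osteoprogenitors. 5TGM1-GFP is 1 mouse myeloma cell line, labelled with a fluorescent protein, so the myeloma libraries represent that line alone. Each library is named by the letter in its code; the labels do not state that a letter is 1 mouse, so the p-values below measure the spread between these libraries. Reads on genes ran from 9735031 to 34883291 per library (median 18358479). The sorted populations carried their defining markers: Cdh5 and Pecam1 averaged 282 and 343 RPKM in healthy endothelial cells and below 1 RPKM in the other healthy niche cells, Bglap averaged 20402 RPKM in healthy osteoprogenitors against 50.6 in stromal progenitors, and Igj averaged 6192 RPKM in bone-lining myeloma cells. In pools of cells such as these, fewer cells that express a gene and less RNA per cell cannot be told apart.

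Interferons bind receptors at the cell surface and switch on, through STAT and IRF transcription factors, a broad programme of antiviral genes. Ifitm proteins sit in plasma and endosomal membranes and hinder the entry of enveloped viruses. Bst2 (tetherin) holds budding virus particles at the cell surface, Ly6e is a GPI-anchored protein of the Ly6 family, and Ifi27l2a encodes a small hydrophobic protein of the Ifi27 family. Plac8 is a small cysteine-rich protein abundant in several blood cell types, and Ms4a4d belongs to the MS4A family of membrane-spanning proteins.

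On the mouse genome GRCm38 (GENCODE M21), Ifitm2 (chr7:140954837-140955987, minus strand), Ifitm1 (chr7:140967221-140969825, plus strand) and Ifitm3 (chr7:141009586-141010770, minus strand) lie within 55934 bases of each other, beside Ifitm5. The other members are dispersed: Plac8 at chr5:100553725-100572245, Bst2 at chr8:71534255-71537456 and Ifi27l2a at chr12:103442167-103443680, all on the minus strand, and Ly6e at chr15:74955051-74959905 and Ms4a4d at chr19:11536801-11558467, both on the plus strand. All 8 are protein-coding genes. Promoter windows from RefSeq (GRCm38.p6), each 250 bases before and 50 bases after a transcript start, were matched for 6 of the 8 genes, with no entry for Ifi27l2a or Ly6e. The interferon-stimulated response element is the textbook binding site of the STAT and IRF factors, and its core was searched as GAAANNGAAA on both strands (TTTCNNTTTC on the other). The windows of Bst2, Ifitm3, Ifitm2 and Ifitm1 are shown because these genes differ in their levels below. The Ifitm1 window lies at a transcript start inside the annotated gene, not at its outermost 5′ end. Capitals mark the core.

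Bst2, chr8:71537423-71537722, minus strand: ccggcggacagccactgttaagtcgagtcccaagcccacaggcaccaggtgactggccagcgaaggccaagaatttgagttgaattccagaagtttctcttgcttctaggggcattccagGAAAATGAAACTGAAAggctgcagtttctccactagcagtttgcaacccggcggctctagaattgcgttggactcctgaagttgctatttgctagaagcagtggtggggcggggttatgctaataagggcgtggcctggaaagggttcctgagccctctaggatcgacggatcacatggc
Ifitm3, chr7:141010695-141010994, minus strand: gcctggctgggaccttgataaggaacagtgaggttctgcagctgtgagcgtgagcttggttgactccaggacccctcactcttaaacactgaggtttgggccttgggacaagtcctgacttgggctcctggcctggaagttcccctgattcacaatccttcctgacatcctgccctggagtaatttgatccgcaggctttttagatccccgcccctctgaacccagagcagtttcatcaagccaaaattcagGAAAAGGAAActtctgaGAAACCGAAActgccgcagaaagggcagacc
Ifitm2, chr7:140955912-140956211, minus strand: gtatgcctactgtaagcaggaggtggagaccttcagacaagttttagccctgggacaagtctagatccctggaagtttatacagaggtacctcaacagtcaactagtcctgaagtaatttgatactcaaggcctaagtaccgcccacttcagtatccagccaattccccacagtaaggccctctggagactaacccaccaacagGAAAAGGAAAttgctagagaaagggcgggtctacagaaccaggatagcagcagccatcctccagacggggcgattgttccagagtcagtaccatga
Ifitm1, chr7:140967826-140968125, plus strand: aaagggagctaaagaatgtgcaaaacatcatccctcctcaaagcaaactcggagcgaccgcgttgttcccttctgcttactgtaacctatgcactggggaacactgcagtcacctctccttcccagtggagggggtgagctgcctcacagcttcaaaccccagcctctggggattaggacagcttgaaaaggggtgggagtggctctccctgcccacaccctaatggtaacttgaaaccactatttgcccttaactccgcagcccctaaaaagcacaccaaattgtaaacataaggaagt

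Counted from 1 at the 5′ end of the window, the core began at positions 121 and 127 for Bst2, where the matches overlap, at 253 and 270 for Ifitm3 and at 205 for Ifitm2. It was present in the windows of 3 of the 6 genes, and not in those of Ifitm1, Ms4a4d or Plac8 (2 windows). Of all 32851 promoter windows, 3.44% held it, and of the 39 windows of a list of other interferon-response genes, 46.15%. A second motif, TTCNNNGAA, the core of the gamma-activated site bound by STAT factors, occurred once each in Bst2 and Ifitm3, overlapping the first motif, and in 8.30% of all windows. A match describes letters in a window and not a site in use.

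Ifi27l2a showed the widest range of the members between niche groups. Osteoprogenitors of healthy mice had 0 reads for Ifi27l2a in libraries L, N and O and 2 reads (0.342 RPKM) in M, whereas those of myeloma-bearing mice had 109 RPKM in D, 229 in G, 37.6 in I and 59.7 in J. Reads summed over these libraries, 2 against 3076, gave a ratio of 1627 per library size, with an exact 95% counting interval of 450 to 13441 that does not cover the spread between libraries. All 4 myeloma-bearing libraries lay above all 4 healthy ones, and the difference in mean log2(RPKM + 1), the scale used for every difference below, was 6.35.

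In stromal progenitors, Ifi27l2a stood at 7.01, 0.506, 173, 42.5 and 28.5 RPKM in healthy libraries C, L, M, N and O, and at 138, 299, 897, 856 and 673 RPKM in myeloma-bearing libraries D, E, G, I and J. Only healthy library M reached into the myeloma-bearing range, above D, and the difference was 4.59. In endothelial cells the healthy libraries already spanned 95.4 (C), 27.9 (L), 1051 (M), 459 (N) and 312 (O) RPKM, and the myeloma-bearing ones 531 (D), 1004 (E), 466 (G), 1243 (I) and 374 (J). These groups overlapped widely, with a difference of 1.62 against a pooled SD of 1.53, which was 0.90 without healthy library L. The library lettered M was the highest healthy one for Ifi27l2a in both endothelial cells and stromal progenitors, and for Ms4a4d in endothelial cells.

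Bst2 was present in every library, at very different levels. In healthy osteoprogenitors it was held in a narrow band, at 34.3 (L), 30.8 (M), 29.6 (N) and 23.3 (O) RPKM, and in myeloma-bearing osteoprogenitors it was 73.2 (D), 437 (G), 103 (I) and 77.2 (J) RPKM. The groups did not overlap, and the ratio of mean RPKM was 5.85. Stromal progenitors held 1.79 (C), 0.229 (L), 20.4 (M), 0.299 (N) and 27.5 (O) RPKM in healthy mice, the L and N values resting on 3 and 5 reads, against 73.2 (D), 186 (E), 53.9 (G), 113 (I) and 15.0 (J) in myeloma-bearing mice. There, 4 of 5 myeloma-bearing libraries lay above all healthy ones and J did not. Endothelial cells held 80.9 (C), 687 (L), 346 (M), 196 (N) and 98.9 (O) RPKM and, in myeloma-bearing mice, 727 (D), 1218 (E), 463 (G), 410 (I) and 628 (J), overlapping through healthy library L, with a ratio of means of 2.45.

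Among the clustered Ifitm genes, Ifitm3 had higher means in stromal progenitors and osteoprogenitors of myeloma-bearing mice, whereas Ifitm2 stood at nearly equal means. Ifitm3 in osteoprogenitors was 774 (L), 1077 (M), 559 (N) and 534 (O) RPKM in healthy mice and 1484 (D), 2294 (G), 1040 (I) and 1306 (J) in myeloma-bearing mice, a ratio of means of 2.08 with a single overlap, of I with M. In stromal progenitors it was 650 (C), 1385 (L), 1770 (M), 661 (N) and 1030 (O) against 1540 (D), 2068 (E), 3111 (G), 1104 (I) and 2949 (J), a ratio of 1.96 with 3 of 5 libraries above all healthy ones. Endothelial cells had the highest Ifitm3 of all groups, from 4497 to 11593 RPKM in healthy and 7551 to 15160 in myeloma-bearing mice, and the difference there was 0.48, or 0.29 without healthy library C.

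Ifitm2 averaged 2174 ± 567 RPKM (SD, n = 5) in healthy and 1851 ± 474 in myeloma-bearing endothelial cells, 1332 ± 491 and 1325 ± 151 in stromal progenitors, and 801 ± 193 and 788 ± 357 (n = 4) in osteoprogenitors. Its differences, -0.23, 0.07 and -0.08, were all smaller than the pooled SD of the same libraries, and their sign turned in stromal progenitors without library C (-0.14) and in osteoprogenitors without I (0.01), J (0.06) or M (0.03). Of the 50-base windows of Ifitm2 transcripts, 48.5% were also found in transcripts of other genes, among them the overlapping Gm45717 on the same strand and further Gm gene models, so the reads counted on Ifitm2 are uncertain. That share was 10.0% for Ifitm3, 5.02% for Ifitm1 and below 1% for the other members.

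Ifitm1 followed another course. Osteoprogenitors carried it in both groups of mice, at 101 (L), 18.8 (M), 43.6 (N) and 60.3 (O) RPKM in healthy and 64.5 (D), 97.9 (G), 73.6 (I) and 42.7 (J) in myeloma-bearing mice, overlapping fully. The difference of 0.48 became 0.05 without M, 0.30 without G and 0.84 without L. Healthy stromal progenitors had 2 reads in library M and 0 in the others, while myeloma-bearing ones had 3.74 (D), 0.0459 (E), 18.2 (G), 0.0477 (I) and 21.7 (J) RPKM, where E and I are 1 read each. Healthy endothelial cells had 2 to 4 reads per library, and myeloma-bearing ones reached 56.5 RPKM in E and 5.24 in J but 1 to 3 reads in D, G and I. In these 2 cell types the gene was thus at a few reads or plainly detected from one 100-cell library to the next.

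Ly6e showed small differences in endothelial cells and stromal progenitors. Without library M its endothelial difference, 0.13, became -0.02. Its endothelial means were 1556 ± 471 RPKM in healthy and 1670 ± 357 in myeloma-bearing mice (SD, n = 5). In stromal progenitors the libraries read 82.9 (C), 82.2 (L), 126 (M), 89.2 (N) and 151 (O) against 107 (D), 152 (E), 246 (G), 151 (I) and 156 (J), a difference of 0.60. In osteoprogenitors they scattered, at 19.3 (L), 38.6 (M), 3.76 (N) and 82.6 (O) against 12.9 (D), 257 (G), 61.7 (I) and 19.2 (J), and 1 library, G, held the only value above all healthy ones. The difference of 0.96 there became 0.13 without G, 0.18 without N, 1.53 without D and 1.56 without O.

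Plac8 and Ms4a4d also alternated between a few reads and clear expression. In the 28 niche libraries Plac8 had 5 or fewer reads in 14 and at least 88 in the rest, and Ms4a4d had 5 or fewer in 13 and at least 49 in the rest. Plac8 in osteoprogenitors was 29.4 (L), 0 (M), 7.81 (N) and 0 (O) RPKM in healthy and 59.0 (D), 181 (G), 83.5 (I) and 37.5 (J) in myeloma-bearing mice, without overlap. In stromal progenitors it was 0 in healthy libraries C, M, N and O and 116 RPKM in L, against 23.1 (D), 118 (E), 59.2 (G), 236 (I) and 253 (J). Endothelial cells mostly lacked it, with 11.3 RPKM in healthy N, 41.9 in myeloma-bearing D and at most 5 reads in the other 8 libraries.

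Stromal progenitor libraries L of healthy and E of myeloma-bearing mice also stood apart in 10 measured neutrophil and macrophage markers (of 15 listed), with summed levels of 7447 and 8359 RPKM against 9.09 to 296 in the other 8 stromal progenitor libraries. Without both libraries, Plac8 in stromal progenitors ran from 23.1 to 253 RPKM in myeloma-bearing mice and had 0 reads in all 4 healthy libraries. Ifi27l2a then differed by 3.83 and Bst2 by 2.93, both still overlapping. In osteoprogenitors the same markers summed to 124 to 182 RPKM in healthy and 26.0 to 226 in myeloma-bearing mice, and in endothelial cells myeloma-bearing D, the library highest in Plac8, had the lowest sum of its group, 1.99. Erythroid markers were represented by Alas2 alone, at most 7.45 RPKM in niche libraries. Of 4 measured plasmacytoid dendritic cell markers, the defining gene Siglech had a mean of at most 0.00656 RPKM in every niche group. The sum of these 4 was 122 RPKM in myeloma-bearing stromal progenitor library I, the library highest in Ms4a4d, against 24.3 to 48.4 in the other 9 stromal progenitor libraries. In endothelial cells it was 307 RPKM in healthy library L, the healthy library highest in Bst2, and 60.2 to 148 in the other 9. These sums rest on few genes: of the 4, only 1 averaged over 1 RPKM in each stromal progenitor group and 2 in each endothelial group. Sums of 6 general leukocyte markers were 113 and 172 RPKM in stromal progenitor libraries L and E, 19.7 in myeloma-bearing stromal progenitor library J and 27.9 in myeloma-bearing osteoprogenitor library J, and at most 5.23 in the other niche libraries. The part of such cells in the members' values was not tested. Of 8 measured plasma cell markers, the sums were 1.61 to 35.7 RPKM in niche libraries against 3555 to 10244 in myeloma cells.

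Ms4a4d in endothelial cells had at most 1 read in healthy libraries C, L, N and O but 102 RPKM in M, against 15.7 (D), 131 (E), 3.19 (G), 27.6 (I) and 48.9 (J) in myeloma-bearing mice. Healthy stromal progenitors held 1 read in all, in L, against 0 in D and 11.1 (E), 22.1 (G), 71.9 (I) and 68.1 (J) RPKM in myeloma-bearing mice. Healthy osteoprogenitors held 2.62 (L), 0.0541 (M), 34.2 (N) and 0 (O), against 0 (D), 58.0 (G), 31.3 (I) and 19.9 (J). Each cell type therefore had at least 1 library that ran against the rest of its group, M in healthy endothelial cells, D in myeloma-bearing stromal progenitors and osteoprogenitors, and N in healthy osteoprogenitors. The osteoprogenitor difference of 2.05 became 3.33 without D, 3.18 without N and 1.37 without G.

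**Figure D1:**
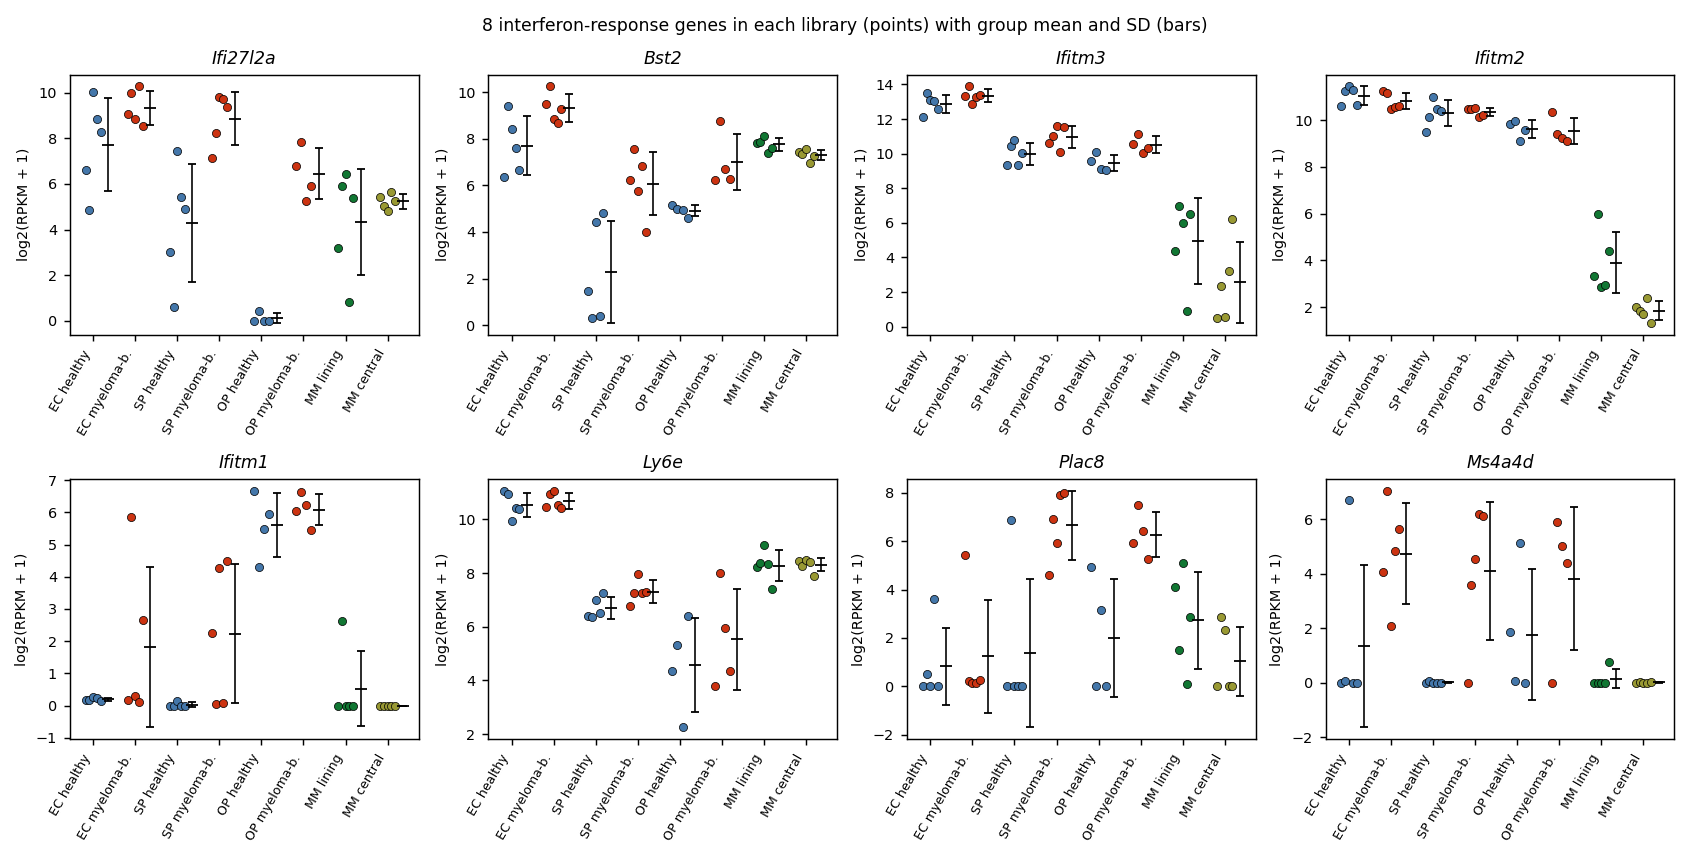
Each panel plots 1 gene as log2(RPKM + 1) in every library (points) of the 8 groups, with the group mean and SD as bars; EC, SP, OP and MM stand for endothelial cells, stromal progenitors, osteoprogenitors and myeloma cells, and myeloma-b. for myeloma-bearing. Ifitm2 and Ifitm3 are high in all niche groups and low in myeloma cells, Ifitm1 is high in osteoprogenitors, and Plac8 and Ms4a4d scatter between near 0 and over 6.

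Read over the list, 7 of the 8 members had a higher mean log2(RPKM + 1) in myeloma-bearing mice in endothelial cells, 8 in stromal progenitors and 7 in osteoprogenitors, with Ifitm2 the exception in both cases. In stromal progenitors the mean RPKM of Ifitm2 was slightly lower in myeloma-bearing mice, at 1325 against 1332. The median difference over the members was 1.05, 2.995 and 1.55, and over all genes tested in the same libraries it was 0.07, -0.0006 and -0.03. Groups did not overlap for 0, 0 and 3 members (Ifi27l2a, Bst2 and Plac8 in osteoprogenitors), where 0.571%, 0.354% and 1.34% of all genes tested had every myeloma-bearing library above every healthy one. Since the members were chosen on these differences, nothing is read from those counts. The limma test of the whole table, at an adjusted p below 0.1 and an absolute log2 difference above 1, called 0% of 7880 genes higher in endothelial cells, 0% of 8747 in stromal progenitors and 0.0115% of 8664 (1 gene) in osteoprogenitors. There 0 were called higher without letter D, G, I or J, the myeloma-bearing libraries, and 1 without L, M, N or O. A gene over 1 RPKM in the 4 myeloma-bearing libraries alone is not tested once 1 of them is left out. Nothing about the members is read from these counts either. Without regard to adjustment, 414, 437 and 422 genes had p below 0.05. With voom-limma on recovered reads, the genes called in either direction numbered 4, 0 and 0, and with all 38 libraries in 1 fit they numbered 258, 31 and 16. The members that passed the filter on low values, set at a level over 1 RPKM in 4 or more libraries of a comparison, numbered 6 in endothelial cells (not Plac8 or Ifitm1), 7 in stromal progenitors (not Ifitm1) and 8 in osteoprogenitors. Ifi27l2a in osteoprogenitors and Ms4a4d in stromal progenitors each passed through 4 myeloma-bearing libraries, with no healthy library over that level.

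**Figure D2:**
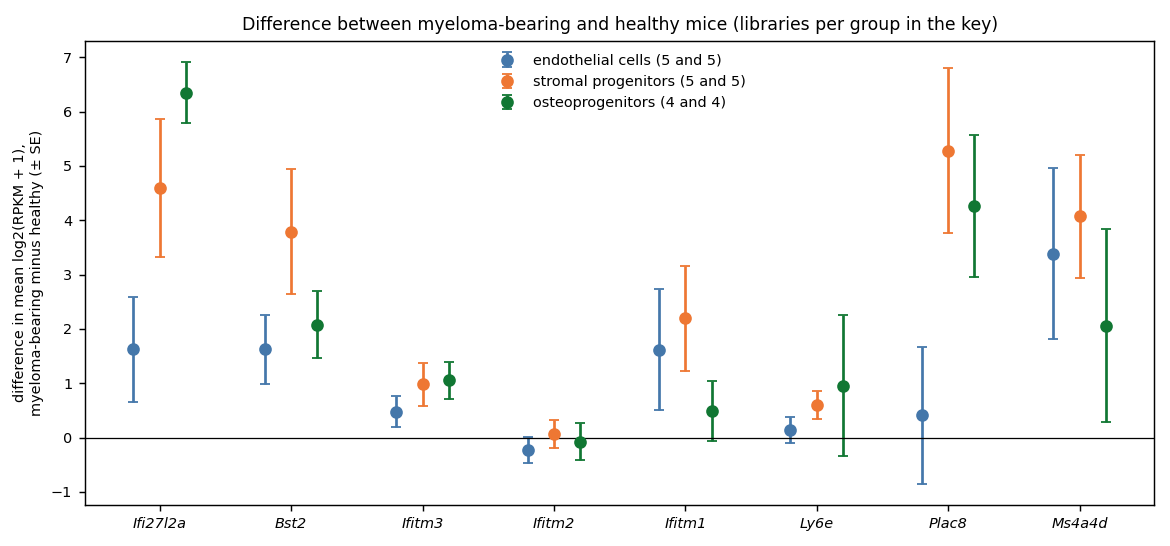
Points show the difference in mean log2(RPKM + 1), myeloma-bearing minus healthy, for each gene in endothelial cells (5 and 5 libraries), stromal progenitors (5 and 5) and osteoprogenitors (4 and 4); bars are the SE of the difference. Ifi27l2a in osteoprogenitors lies highest at 6.35, and Ifitm2 lies near 0 in all 3 cell types.

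Of 45 other interferon-response genes listed, 44 were in the table used here. In endothelial cells 42 of 44 tested had a higher mean in myeloma-bearing mice, with a median difference of 1.80; in stromal progenitors 29 of 31, with a median of 1.34; and in osteoprogenitors 23 of 28, with a median of 1.11. By limma 0 of these genes were called in each of the 3 cell types, and by voom-limma 2, 0 and 0. With all 38 libraries in 1 fit the counts were 13, 0 and 0, and with no filter 1, 0 and 0. Mx2, a dynamin-like antiviral GTPase, and Zbp1, a sensor of Z-form nucleic acids, had the largest endothelial differences, 5.06 and 5.23, with Zbp1 at 0.306 ± 0.597 RPKM in healthy and 51.1 ± 32.1 in myeloma-bearing mice (SD, n = 5). Trim25, a ubiquitin ligase of RNA sensing, and the RNA sensor Ifih1 had the smallest, -1.24 and -0.06. In stromal progenitors Usp18, a brake on interferon receptor signalling, and the GTPase Iigp1 stood at 3.52 and 2.999, and Ifit2 and Samd9l at -1.45 and -0.79. In osteoprogenitors the GTPase Igtp and the receptor chaperone Rtp4 stood at 2.91 and 2.86, and Ifih1 and Samd9l at -1.17 and -0.73. On this scale the largest endothelial differences exceeded that of any member in those cells, where Ms4a4d was highest at 3.38. The Ms4a4d difference ran from 2.80 to 7.83 over the settings tried, so the order is given for this scale alone. Of the 11 receptor and signalling genes of the interferon pathway, 10, 10 and 9 were tested and 0 called, with medians of -0.45, 0.23 and -0.0034; the interferon genes themselves, 21 listed, were not in the table used here and were not analysed.

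**Figure D3:**
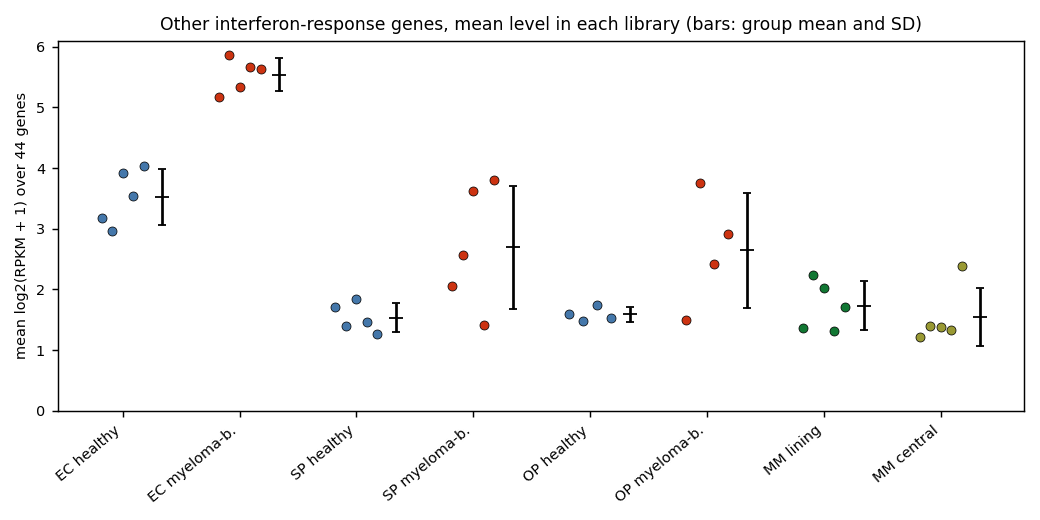
The mean log2(RPKM + 1) over 44 other interferon-response genes is plotted for every library (points) with group means and SDs (bars). Myeloma-bearing endothelial cells, from 5.18 to 5.86, lie above all healthy ones, from 2.97 to 4.04, whereas the stromal progenitor and osteoprogenitor groups overlap.

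Library by library, this list did not follow every member. Myeloma-bearing stromal progenitor library I had the second highest Ifi27l2a and Plac8 of its group and the highest Ms4a4d, with a list mean of 1.41, inside the healthy range of 1.26 to 1.85. Myeloma-bearing osteoprogenitor library D, with Ifi27l2a at 109 RPKM, had a list mean of 1.49 against 1.48 to 1.75 in healthy libraries. Over the 28 niche libraries, deviations of the members from their group means were correlated most for Ifitm2 with Ifitm3 (Pearson r 0.551, Spearman rho 0.588). The next pair was Ifitm1 with Ifitm3 by Pearson r (0.419, rho 0.418) and Bst2 with Ifitm2 by Spearman rho (0.449, r 0.371).

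Among 11713 genes compared in this way, the genes most like each member were neither other members nor of the interferon list. They were Fopnl and Bag1 for Ifi27l2a (r 0.749 and 0.733), Apoo and Mrps2 for Bst2 (0.781 and 0.692), Hint1 and Usmg5 for Ifitm2 (0.817 and 0.803), and Tmsb4x and Pls3 for Ifitm3 (0.779 and 0.755). For Ifitm1 they were Cask and Inpp5e (0.786 and 0.720), for Ly6e Npy and Gpr37l1 (0.709 and 0.662), for Plac8 2700099C18Rik (0.771), and for Ms4a4d Rhobtb1 and Ddx49 (0.733 and 0.732). These values are the highest of many and share their libraries and depth.

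Differences between the niche cell types, taken as the mean of the differences in healthy and in myeloma-bearing mice, were tested with limma over all genes. These averages include the myeloma-bearing libraries whose levels took part in choosing the genes, so the gap in healthy mice is given where it differs most. Endothelial cells expressed 4 members above stromal progenitors, and 5 of 8 were called in either direction, where 24.0% of the 10596 genes tested were called. The 5 include Plac8, which passed the filter through stromal progenitors alone. The filter thus favoured a difference, and the Plac8 values are a description. Ly6e was higher by 3.61 ± 0.24 (SE, adjusted p = 1.14e-11), with endothelial libraries from 982 to 2146 RPKM and stromal ones from 82.2 to 246. Bst2 was higher by 4.33 ± 0.61 (adjusted p = 6.16e-06) and Ifitm3 by 2.64 ± 0.22 (adjusted p = 1.20e-09). The Bst2 gap was 5.42 in healthy and 3.25 in myeloma-bearing mice. Ifi27l2a was higher by 1.97 ± 0.69 (adjusted p = 0.0463), a call that was lost without stromal progenitor libraries L and E (1.43, adjusted p = 0.136), without letter D (1.79, adjusted p = 0.105) or E (1.81, adjusted p = 0.112) and with voom-limma (2.06, adjusted p = 0.121). The gap was 3.45 in healthy and 0.48 in myeloma-bearing mice. Plac8 stood lower in endothelial cells, by -2.99 ± 0.91, and by -2.27 without stromal progenitor libraries L and E. Its gap was -0.55 in healthy and -5.42 in myeloma-bearing mice, and 6 of 10 stromal progenitor libraries were over 1 RPKM against 2 of 10 endothelial ones. Nothing is read from this call. Ifitm2, at 0.60 ± 0.19, Ifitm1, at -0.12 ± 0.69, and Ms4a4d, at 0.99 ± 0.90, did not pass both thresholds.

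Against osteoprogenitors, 7 of 8 members were called, where 26.2% of 10756 genes were called. The 7 include Ifitm1 and Plac8, which passed the filter through osteoprogenitors alone, so that the filter favoured a difference. The other 5 were higher in endothelial cells. Ly6e (5.57 ± 0.52, adjusted p = 3.12e-08), Ifi27l2a (5.25 ± 0.58, adjusted p = 3.72e-07), Ifitm3 (3.12 ± 0.20, adjusted p = 6.95e-11), Bst2 (2.55 ± 0.44, adjusted p = 0.000160) and Ifitm2 (1.36 ± 0.21, adjusted p = 4.42e-05) were higher in endothelial cells. Given as a description, Ifitm1 stood at -4.83 ± 0.70 and Plac8 at -3.11 ± 0.87, with 8 and 6 of 8 osteoprogenitor libraries over 1 RPKM against 2 of 10 endothelial libraries for each gene. The Plac8 gap was -1.19 in healthy and -5.04 in myeloma-bearing mice, and that of Ifi27l2a was 7.62 and 2.89. Ms4a4d, at 0.24 ± 1.05, did not pass. With voom-limma, Ly6e and Ifitm3 kept their differences, 5.25 and 3.14, but not their calls (adjusted p = 0.242 and 0.555), with weights between libraries of Ifitm3 running from 1.66 to 128931.

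Osteoprogenitors against stromal progenitors gave 3 of 8 calls, where 7.69% of 10735 genes were called. The 3 include Ifitm1, which passed the filter through osteoprogenitors alone and is given as a description. Ifitm1 stood higher in osteoprogenitors by 4.71 ± 0.63, with the lowest osteoprogenitor library at 18.8 RPKM and the highest stromal one at 21.7. Of the stromal libraries, 3 of 10 were over 1 RPKM. Ifi27l2a was lower by -3.29 ± 0.67 (adjusted p = 0.00283) and Ly6e by -1.95 ± 0.53 (adjusted p = 0.0275). The Ifi27l2a gap was -4.17 in healthy and -2.41 in myeloma-bearing mice. Bst2, at 1.78 ± 0.64 (adjusted p = 0.117), passed under 5 of 17 alternatives, and Plac8, Ifitm2, Ifitm3 and Ms4a4d did not pass. Under scaling to total reads, the median of all genes moved from -0.16 to 0.09 for endothelial against stromal cells and from 0.04 to 0.21 for osteoprogenitors against stromal progenitors. The genes called higher and lower then became 1331 and 1254 in place of 1004 and 1542, and 574 and 283 in place of 441 and 385. With voom-limma the latter were 600 and 311.

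**Figure D4:**
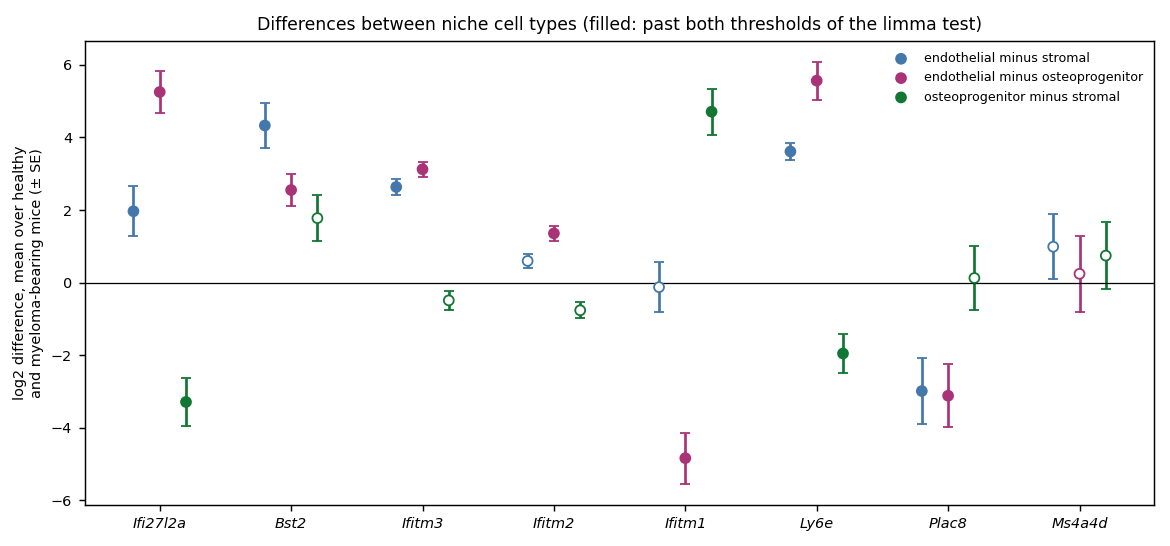
Points are limma log2 differences between cell types, averaged over healthy and myeloma-bearing mice, with SE bars; filled points passed the adjusted p of 0.1 and the log2 threshold of 1. Ly6e, Ifitm3, Bst2 and Ifi27l2a are filled above 0 for endothelial cells in both of their comparisons, and Ifitm1, which passed the filter through osteoprogenitors alone, is filled on their side in both of theirs.

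The other interferon-response genes were also higher in endothelial cells, with 32 called higher and 1 lower of 44 tested against stromal progenitors (median 2.39 against -0.16 over all genes) and 30 higher and 1 lower of 44 against osteoprogenitors (median 2.39 against -0.21). Between osteoprogenitors and stromal progenitors 1 was called higher and 1 lower of 41. All 44 genes passed the filter within endothelial cells, but 31 within stromal progenitors and 28 within osteoprogenitors. Those that needed endothelial libraries to pass were favoured to differ, so the endothelial counts are a description. Of the interferon receptor and signalling genes, 1, 5 and 0 of 10 were called in these comparisons. Of 22 listed family relatives outside the 8 genes, 4 were called higher of 6 tested in endothelial cells against stromal progenitors, 3 higher and 2 lower of 8 against osteoprogenitors, and 1 higher and 2 lower of 6 in osteoprogenitors against stromal progenitors. Over all genes, 24.0%, 26.2% and 7.69% were called in these comparisons. The relatives counted include Ly6a, part of the sort, and Ms4a6d and Ly6k. Ms4a6d needed endothelial cells and Ly6k osteoprogenitors to pass the filter, so nothing is read from the counts. Ifitm5, known in osteoblasts, stood higher in osteoprogenitors than in stromal progenitors by 9.14 ± 0.60, given as a description like Ifitm1, at 1101 ± 693 RPKM in healthy osteoprogenitors (SD, n = 4) and 0.336 ± 0.163 in healthy stromal progenitors (n = 5). Ly6c1, a Ly6 relative of Ly6e, was higher in endothelial cells than in stromal progenitors by 2.02 ± 0.19 (adjusted p = 9.20e-09). Another, Ly6k, stood lower in endothelial cells than in osteoprogenitors, by -2.28 ± 0.75. This is given as a description because Ly6k needed osteoprogenitors to pass the filter. Ly6a, which encodes Sca1, was part of the sort and is not read as a finding. Ifi27l1, the relative of Ifi27l2a, differed by at most 0.25 between cell types and was not called in any of them.

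The order of mean log2(RPKM + 1) over both groups of mice placed endothelial cells first for Ifi27l2a, Bst2, Ifitm2, Ifitm3, Ly6e and Ms4a4d, and osteoprogenitors first for Ifitm1 and Plac8. By mean RPKM, Plac8 was instead higher in stromal progenitors, at 80.5 against 49.8 in osteoprogenitors. For Ifitm2 the leading endothelial cells and stromal progenitors did not differ past both thresholds, for Ms4a4d no niche neighbours in the order differed past the thresholds, and for Plac8 the leading osteoprogenitors and stromal progenitors did not. Myeloma cells, which were not tested against niche cells, held the second place for Bst2 (190 ± 45.4 RPKM, SD, n = 10) and Ly6e (324 ± 93.2) and the last for Ifitm1, Ifitm2, Ifitm3 and Ms4a4d.

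Within myeloma cells, none of the 6 members tested passed between the bone lining and the central marrow, where 0.203% of 8857 genes were called (Ifitm1 and Ms4a4d did not pass the filter). Ifitm2 was 8.97 (D), 62.2 (E), 6.33 (G), 6.76 (I) and 19.9 (J) RPKM in the bone lining and 3.06 (D), 2.54 (E), 2.23 (G), 4.33 (I) and 1.497 (J) in the central marrow. Every bone-lining library lay above every central one, a separation that was not counted over all genes. The difference was 2.05 ± 0.55 (adjusted p = 0.264). It passed only with all 38 libraries in the fit (adjusted p = 0.00464, range over alternatives 0.00464 to 0.815). Markers of stromal cells summed to 5.42 to 67.3 RPKM in bone-lining and 6.75 to 17.4 in central libraries, and their part in the Ifitm2 values was not tested. Ifitm3 ran from 0.847 (I) to 124 (E) in the bone lining and from 0.433 (D) to 74.1 (J) in the central marrow, a difference of 2.38 ± 1.10 (adjusted p = 0.832).

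Bst2 in myeloma cells averaged 220 ± 42.9 RPKM in the bone lining and 159 ± 23.3 in the central marrow (SD, n = 5), with a difference of 0.45 ± 0.20 (adjusted p = 0.830). Ly6e averaged 330 ± 130 and 318 ± 49.5, a difference of -0.03 ± 0.25 (adjusted p = 0.998). Ifi27l2a was uneven in the bone lining, at 8.01 (D), 60.003 (E), 84.9 (G), 0.762 (I) and 40.3 (J) RPKM, and even in the central marrow, from 26.9 (G) to 49.1 (I), with a difference of -0.89 ± 0.77 (adjusted p = 0.942) that became 0.10 without letter I, -0.55 without D and -1.52 without G. Plac8 was 16.05 (D), 1.83 (E), 32.7 (G), 0.0564 (I) and 6.24 (J) against 6.27 (E), 3.95 (G) and 0 in D, I and J, a difference of 1.69 ± 0.85 (adjusted p = 0.840) that became 1.09 without letter D, 3.05 with a pseudocount of 0.1 and 3.62 with voom-limma. Of 29 other interferon-response genes tested in myeloma cells, 0 were called, with a median difference of 0.0035 against -0.0082 over all genes, and 530 genes of the whole table had an unadjusted p below 0.05 by limma.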

How the data were processed

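RNA-Seq libraries were made by the SmartSeq2 method from 100 sorted cells each, in 38 samples. Per the labels and the study's methods, the authors aligned reads to mouse GRCm38 (mm10) with STAR 2.4.0, counted them per gene with featureCounts of Subread 1.4.5-p1 at default settings, which ignore strand, and deposited RPKM values computed with edgeR. Members and gene lists were chosen with earlier results of these data known.

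Groups followed the labels. From the deposited RPKM values, whole reads were recovered for 100% of 13260 genes as multiples of each gene's value for 1 read (within 0.001 reads or 2e-06 of the value), which gave the depths; for 3997 genes no library held 1 read, and that value was inferred; amplified reads are not independent molecules, so counting intervals cover counting error only. Comparisons used limma 3.58.1 in R 4.3.3 (lmFit, trended eBayes). Values entered as log2(RPKM + 1), and a gene was tested if 4 or more libraries of the comparison exceeded 1 RPKM. Calls needed an adjusted p (Benjamini-Hochberg) under 0.1 and a log2 difference beyond 1 in either direction. The pseudocount of 1 understates changes of low genes. Between cell types, differences were averaged over healthy and myeloma-bearing mice. Recovery and limma were tested on simulated data. Python 3.11.15, pandas 2.3.3 and matplotlib 3.10.9 were used.

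Named genes were the 8 members, the 2 largest and 2 smallest differences of the interferon list in each niche cell type, and the 2 genes most like each member, of which 1 is not reported here. Relatives named from the family list, and the libraries left out for neutrophil genes, were chosen after their values were seen. Alternatives were a pseudocount of 0.1, no filter, all 38 libraries in 1 fit, total-read scaling, voom-limma on recovered reads, a replicate block and leaving out each replicate letter.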

Additional observations from a re-analysis of the deposited data

Results flagged for a closer look

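In 57 groups of libraries of a member gene, 5 held a library whose gap to the nearest other, on log2(RPKM + 1), was large for the range of its group. The limit used lets chance pass about 1 in 20 groups of normally spread values, which genes that alternate between a few reads and many are not. Plac8 was 11.3 RPKM in healthy endothelial library N, against at most 0.409 in the other 4. Plac8 was 41.9 RPKM in myeloma-bearing endothelial library D, against at most 0.208 in the other 4. Plac8 was 116 RPKM in healthy stromal progenitor library L, against 0 in the other 4, in the library that also held 7447 RPKM of summed neutrophil and macrophage markers. Ifitm1 was 5.15 RPKM in bone-lining myeloma library E, against 0 in the other 4. Ms4a4d was 102 RPKM in healthy endothelial library M, against at most 0.0389 in the other 4. The part of other cells in these values was not tested.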

How the results depend on the processing

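Of 465 alternative values for the member tests, 453 kept their side of the threshold, 6 lost a call and 6 gained one. The sign turned in 18 values of 5 differences that were not called (Ifitm1, Ms4a4d, Plac8, Ifi27l2a and Ly6e in 1 comparison each), and no call turned its direction. Bst2 between osteoprogenitors and stromal progenitors gained its call with all 38 libraries (adjusted p = 0.0259), total-read scaling (0.0691) and without letter E (0.0902), M (0.0881) or O (0.0591). Counts of called genes between niche cell types stayed within 1.5 times, from 2274 to 2448 (endothelial against stromal), 2395 to 2850 (endothelial against osteoprogenitor) and 617 to 795 (osteoprogenitor against stromal) when each letter was left out. The count of 18 between myeloma sites was 1 without a filter and 8 with voom-limma, and 3 to 16 when each letter was left out, lowest without replicate D (3) and 10 without replicate G. The median interferon difference moved from 1.80 to 2.64 (pseudocount of 0.1) and 2.92 (voom-limma) in endothelial cells, from 1.34 to 2.22 (voom-limma) in stromal progenitors, and from 1.11 to 1.76 and 2.13 in osteoprogenitors; voom uses a smaller offset. Leaving out each letter gave 1.60 to 2.07, 0.82 to 1.73 (0.82 without stromal progenitor library J) and 0.82 to 1.33.

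With a replicate block for the letter, the counts were 2509, 2715, 684 and 12 in place of 2546, 2820, 826 and 18, and no member call changed. Same-letter libraries deviated together little (31 pairs, r -0.043 to 0.085), so the letters were not taken to pair the samples. Leaving out the stromal progenitor libraries high in neutrophil genes, chosen after seeing the data, gave counts of 2291 and 684. Depth limits genes at a few reads, where differences depend on the pseudocount: Ifi27l2a in osteoprogenitors went from 6.35 to 9.22 with a pseudocount of 0.1. No paired analysis was made of myeloma-bearing against healthy mice, whose groups share no letter.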
